A study of Mus musculus with 8 samples.

Results

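PIWI-interacting RNAs (piRNAs) of 24 to 28 nt were examined in the small RNA of mature sperm from 4 mice with activated AgRP neurons and 4 control mice. A fragment, meaning a distinct read sequence, was a member when the deposited table of a sample gave it the annotation piRNA alone, marked it as matching the genome and listed it at 24 to 28 nt. This rule took 395875 of the 5724730 distinct fragments of the series, and it reads no abundance and no difference between groups. The members held between 119459 and 502513 reads per sample, which is 1.28% to 2.59% of all reads. Only 96 members reached 50 reads in at least 4 samples and entered the main test of single fragments. Lower count minimums, which take in more members, were run as alternatives.

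Activated mice were Agrp Cre/+ and control mice Agrp +/+. Mice of both genotypes had received, at 8 weeks of age, an adeno-associated virus in the arcuate nucleus of the hypothalamus that carries hSYN-DIO-hM3D(Gq)-mCherry. In this construct a neuronal promoter drives an excitatory designer receptor, which is inverted and read only after Cre has turned it, so Agrp +/+ mice carry the virus without the receptor. CNO, the drug that the receptor answers to, was given to all 8 mice at 1 mg/kg after food had been withdrawn for 1 h, 3 weeks or so after surgery, and sperm from the cauda epididymis was collected 4 h after the drug. The 4 libraries of a group are biological replicates in the study's methods. Each is called a mouse here, although no source used here says whether sperm of several mice was pooled in a library.

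piRNAs guide PIWI proteins, a germline branch of the Argonaute family, to transposon and other transcripts. In the adult mouse testis most of them are pachytene piRNAs, cut from long non-coding precursor transcripts in spermatocytes and round spermatids, and others are cut from the 3′ untranslated regions (UTRs) of messenger RNAs. MILI (PIWIL2) holds the shorter piRNAs and MIWI (PIWIL1) the longer ones, after the 3′ end of a precursor has been trimmed to the footprint of the protein. Primary piRNAs usually begin with uridine, read as T in a sequencing library, while those made by the ping-pong cycle, in which one PIWI protein slices the precursor of the next guide, tend to carry adenosine at position 10.

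The members that the results turn on are printed from 5′ to 3′ as sequenced, with a T at base 1 and an A at base 10 in capitals where they occur. Each tested member was numbered by its mean abundance over the 8 samples, as fragment 1 to fragment 96. The first set is a selection of abundant tested members and shows a fragment with few longer forms (fragment 1), a family that shares its first base (fragments 15, 4, 3 and 8), a fragment with a tRNA-like sequence (fragment 5) and a second family (fragments 6 and 10).
fragment 1: Tattattatcgaatctgggcatgg
fragment 15: Tttcacagatgggggaaactgaggc
fragment 4: Tttcacagatgggggaaactgaggcc
fragment 3: Tttcacagatgggggaaactgaggccc
fragment 8: Tttcacagatgggggaaactgaggccca
fragment 5: gcccggatagctcagttggtagagca
fragment 6: atgcattgtAggatgattggcactatc
fragment 10: atgcattgtAggatgattggcactatcc

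The second set holds the tested members with the smallest unadjusted p, first those with higher and then those with lower values in activated mice.
fragment 57: Tgagatggctgtcatgggatagaagga
fragment 94: Tgccttgcagcctgatcttatggaac
fragment 90: Tatgatgttgcgacctttgtcattg
fragment 76: Tgtgacggagatcatgcggtgcccggac
fragment 49: Tgtgacggagatcatgcggtgcccgga
fragment 69: agggggtaaAaaaaaaaaaaaaaa
fragment 65: Tcaaatgatgatatcacctaaaatagc
fragment 36: agttccttccttggatgtctgagcgaa
fragment 33: Ttttggggtttggcattaagagga
fragment 74: gagaaaactAgtgggtaaagtgcca

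The third set is the leading member of each of 10 genes among those tested by summed member reads, chosen after their values were seen. They run from Gm49794, with the most member reads, to Tnp2, with 34 to 66 per sample. The first 6 come from genes in which most member reads begin with T, and the last 4 from genes in which most do not.
Gm49794, chr17:27356495-27356520, plus strand: Tgattagatgaatatggtgatgtggc
Gm5878, chr6:85112880-85112907, minus strand: TagaagacgAgtttggactgagcgaaat
Gm21388, chr3:34876088-34876115, plus strand: TcacagtctAgtgcagttgacaggtgtg
Gm10505, chr17:27325602-27325629, plus strand: TtagaccagAgacagagattgaaaatgc
Cbl, chr9:44149033-44149060, minus strand, 3′ UTR: Tcaattggttgagtgtttgtctggcatt
Tbl2, chr5:135162215-135162242, plus strand, 3′ UTR: Tcaataaatgggactctgactagaagta
Smcp, chr3:92583931-92583958, minus strand, 3′ UTR: gcaactggaAatggaaggtagaaaagga
Hnrnpa0, chr13:58128127-58128151, minus strand, coding exon: Tactcgaacgtggaggaggcggatg
Odf1, chr15:38226157-38226184, plus strand, coding exon: aattctggcctcgtcttgctgcagcagt
Tnp2, chr16:10787940-10787964, minus strand, 3′ UTR: atggattaaAgcttgtaccctggaa
Positions are those of GENCODE M21 transcripts on GRCm38 (mm10), found by an exact match of the whole fragment. A fragment without such a match has no position here, because no genome sequence was used.

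The libraries held 9297271 to 23123740 reads. The miRNAs typical of male germ cells (miR-34b, miR-34c and miR-449a) were present in every library, with a summed level of 13334 to 22574 reads per 1000000 reads of the library (RPM). Control replicate 4 stood apart. Its smooth muscle miRNAs (miR-143 and miR-145a) summed to 34887 RPM, against 136 to 385 RPM in the other 7 libraries, and its epithelial miRNAs (the 5 members of the miR-200 family) to 18910 RPM, against 1047 to 3380. The 4 erythrocyte miRNAs summed to 110 to 395 RPM in activated and 344 to 1388 RPM in control samples. The 3 leukocyte miRNAs summed to 397 to 856 and 293 to 548 RPM, and no miRNA of any list was at 0. Mitochondrial rRNA (fragments labelled 12S, 16S or Mt_rRNA) took 1.80% to 2.24% of reads in activated replicates 1 and 4 and control replicates 2 and 4, and 7.11% to 8.35% in the other 4. The part of other cells in the results was not tested, nor was that of this split in the summed values. Summed abundance is given without control replicate 4 and within each set. Single fragments were also fitted with the mitochondrial rRNA set as a covariate.

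Genome-matched piRNA reads did not form a peak of their own between 24 and 28 nt. Their mean abundance was higher with each added base in both groups, from 3442 ± 639 RPM (SD, n = 4) at 24 nt to 5544 ± 721 at 28 nt in activated mice, and from 2706 ± 665 to 4044 ± 1023 in control mice. It went on to a peak at 29 nt, with 7729 ± 788 and 5730 ± 1334 RPM, and fell to 2748 ± 209 and 2126 ± 428 at 31 nt. A separate peak lay below the range, at 22 nt, with 8096 ± 1856 and 6797 ± 1876 RPM. The size class attributed to MILI is thus the rising flank of the peak at 29 nt in these libraries, and nothing in the files tells which PIWI protein held a read.

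**Figure D1:**
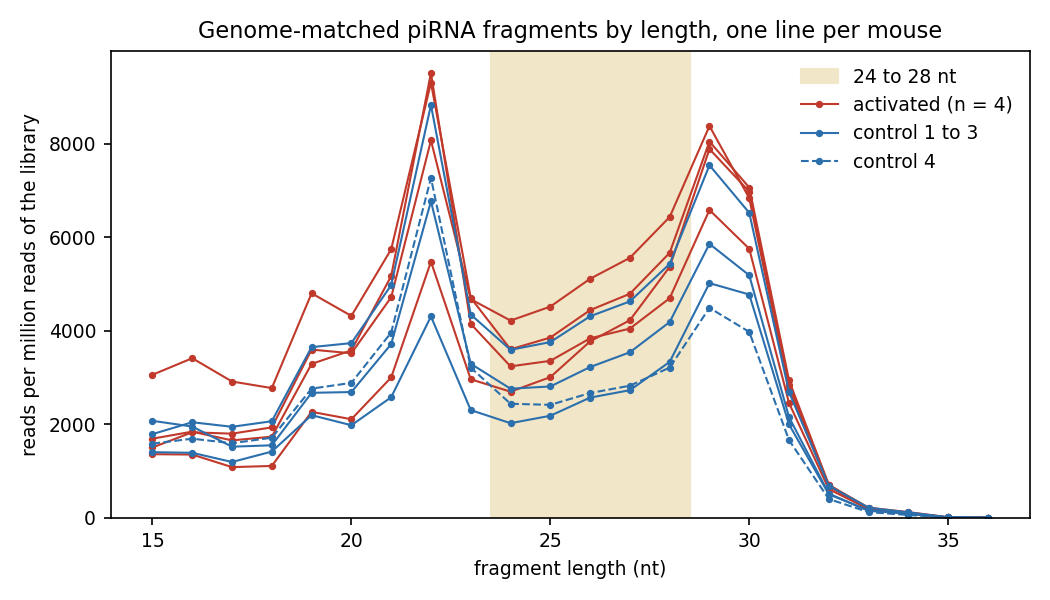
Abundance of genome-matched piRNA fragments (RPM, y axis) at each length from 15 to 36 nt (x axis), with 1 line per mouse, activated in red, control in blue and control replicate 4 dashed; the shaded band marks 24 to 28 nt. All 8 lines are higher at 28 than at 24 nt and peak at 29 nt beside the band, although control replicate 4 dips from 2441 RPM at 24 nt to 2418 at 25 nt, and 3 of the 4 control lines lie below all activated lines at 28 nt.

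The summed abundance of the members was 22371, 25854, 19083 and 19189 RPM in activated replicates 1 to 4 and 16532, 21731, 12849 and 13571 RPM in control replicates 1 to 4. Of the control mice, replicates 1, 3 and 4 lay below every activated mouse, while control replicate 2 lay above activated replicates 3 and 4, so the groups overlapped. The activated mean was 33.7% higher (21624 ± 3206 against 16171 ± 4035 RPM), and the exact permutation test over the 70 assignments of 4 mice to each group did not pass (two-sided, p = 0.0857, where 0.0286 is the smallest this design allows). Leaving out control replicate 2, the only control mouse that overlapped, separates the groups, so the p-value is then fixed at its smallest. The activated mean was then 1.51 times that of control (exact permutation test, p = 0.0286). Without control replicate 4 it was 1.27 times (exact permutation test, p = 0.171). It was 1.18 times within the samples low and 1.53 times within those high in mitochondrial rRNA, with 2 mice of each group in either set. In sperm from a whole cauda, fewer cells that carry piRNAs and less piRNA per cell cannot be told apart.

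The activated mean was the higher one at each length. The ratio of the means was 1.27 at 24 nt, 1.32 at 25 nt, 1.34 at 26 nt, 1.36 at 27 nt and 1.37 at 28 nt, and no length passed the exact test (p adjusted over the 5 lengths from 0.143 to 0.200). The longer genome-matched piRNAs, those of 29 to 33 nt, had a ratio of 1.32 (18007 ± 1610 against 13663 ± 2973 RPM, exact permutation test, p = 0.0571). The balance between shorter and longer piRNAs was mixed between the groups. Reads of 24 to 28 nt made up 54.1%, 57.8%, 50.6% and 55.2% of those of 24 to 33 nt in activated replicates and 54.4%, 55.2%, 50.8% and 56.0% in control replicates (means 54.4% ± 3.0 and 54.1% ± 2.31, exact permutation test, p = 0.943).

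T, the base typical of primary piRNAs, led at base 1 in all 8 libraries. T stood at base 1 of 83.0%, 84.8%, 82.6% and 83.4% of member reads in activated replicates 1 to 4, and of 82.2%, 83.7%, 78.9% and 81.4% in control replicates. Control replicate 3 had the lowest share and the groups overlapped (83.4% ± 0.954 against 81.5% ± 2.03, difference 1.90 percentage points, exact permutation test, p = 0.143). Control replicate 2 was again the only control mouse that overlapped, so leaving it out fixes the p-value at its smallest. The difference was then 2.63 points (exact permutation test, p = 0.0286). Without control replicate 4 it was 1.85 points (exact permutation test, p = 0.229). Without control replicate 3 it was 1.01 points, and among the members with at least 50 reads in 4 samples 1.06 points, and neither passed. Members that begin with T had a ratio of means of 1.36 and members that begin with another base a ratio of 1.22, and neither passed the exact permutation test (p = 0.114 and 0.0857).

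The share with T rose with length within the range. It was 78.6% ± 2.73 (SD, n = 8) at 24 nt and 86.3% ± 1.19 at 28 nt, higher at 28 nt in 8 of 8 libraries (exact sign-flip test over the 8 libraries, p = 0.00781, the smallest this test can give). Members as a whole had 4.29 points fewer reads with T than the genome-matched piRNAs of 29 to 33 nt (82.5% against 86.8%, lower in 8 of 8 libraries, exact sign-flip test, p = 0.00781). They had 46.03 points more than fragments of the same 24 to 28 nt that carry the piRNA label without matching the genome, in which only 36.5% ± 5.49 of reads began with T (higher in 8 of 8, exact sign-flip test, p = 0.00781). Within the piRNA label, fragments with and without a genome match thus differed widely in their first base.

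Position 10 gave a smaller signal. A stood there in 32.0% ± 0.522 of activated and 32.2% ± 0.659 of control member reads (exact permutation test, p = 0.629), and the sign of that difference turned without activated replicate 3 (0.0687 points), without control replicate 4 (0.0429 points) and when each distinct fragment was counted once (0.0695 points). The share was 30.6% ± 1.11 at 24 nt and 34.1% ± 0.575 at 28 nt, higher at 28 nt in 8 of 8 libraries (exact sign-flip test, p = 0.00781), and 35.9% ± 0.345 in piRNAs of 29 to 33 nt. A was more frequent at position 5 than at position 10, with 44.3% ± 0.648 of member reads over the 8 libraries, against 30.8% at position 4 and 33.7% at position 6. The same position led among piRNAs of 29 to 33 nt, with 47.0% ± 0.602 of reads.

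**Figure D2:**
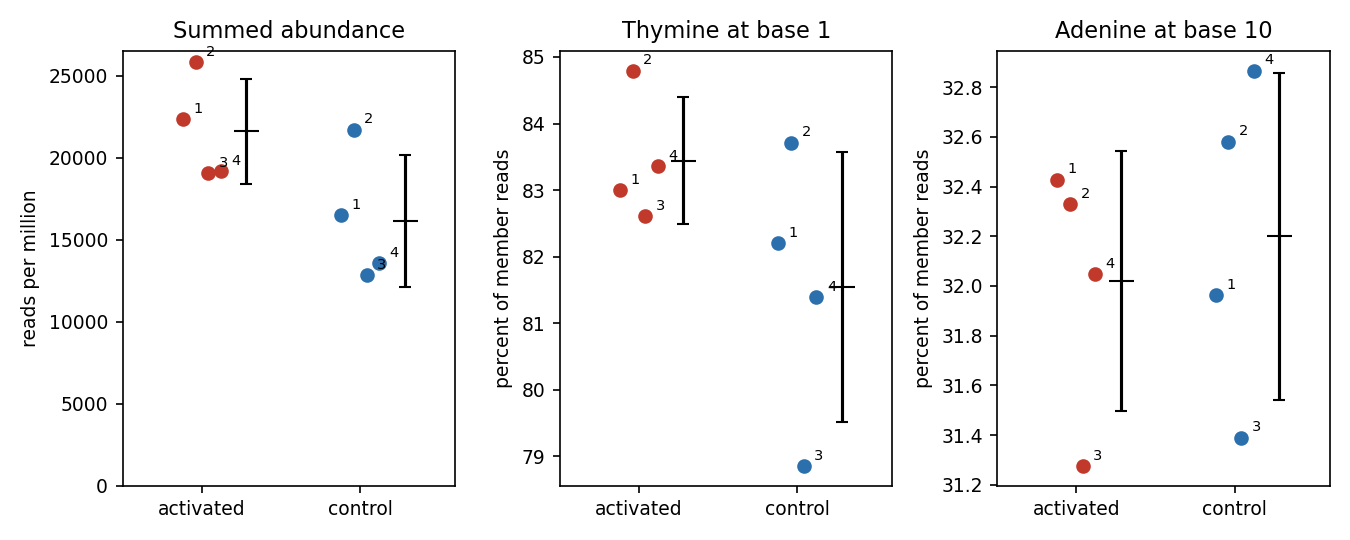
Summed abundance of the members (left, RPM), reads with thymine at base 1 (middle, percent) and reads with adenine at base 10 (right, percent), with 1 point per mouse labelled by its replicate number and the mean ± SD beside it; the middle and right axes do not start at 0. In the left and middle panels control replicate 2 lies among the activated mice, and in the right panel the groups are mixed.

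**Figure D3:**
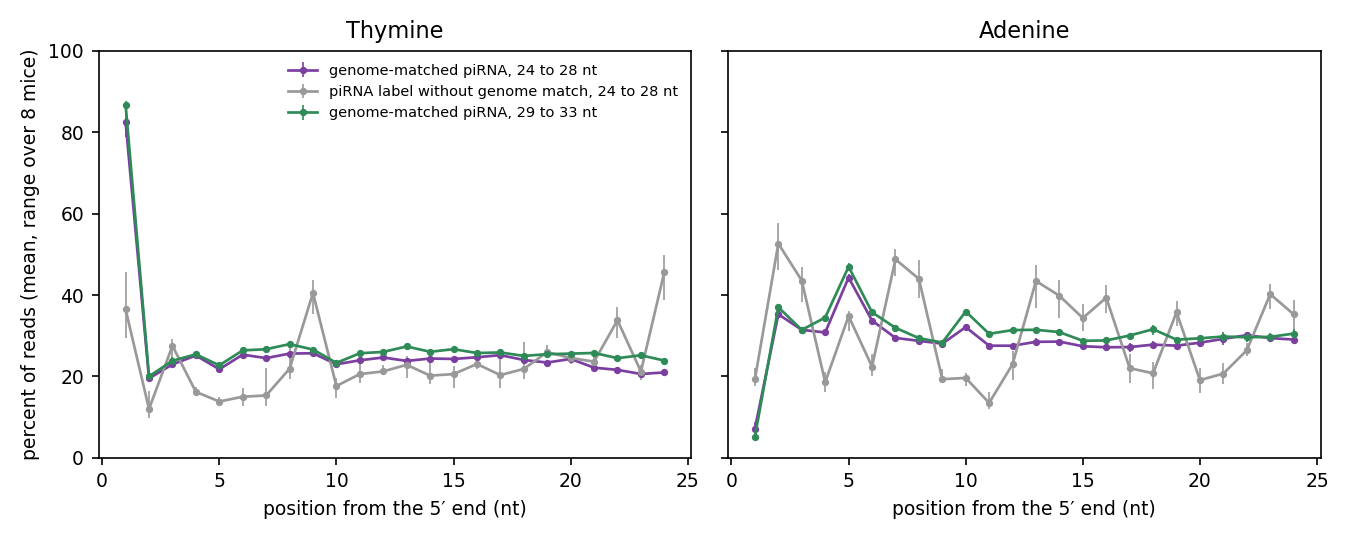
Share of reads (percent, y axis) with thymine (left) or adenine (right) at each of the first 24 positions (x axis) for the members, the genome-matched piRNAs of 29 to 33 nt and the piRNA-labelled fragments of 24 to 28 nt without a genome match; points are means and bars the range over 8 mice. The 2 genome-matched classes run together with thymine at 82.5% and 86.8% of first bases and adenine highest at position 5, while the unmatched class follows another course.

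The members were a population of very many rare fragments. Of the 395875, 69.5% were seen in 1 sample only and held 27.3% of the member reads, whereas 4803 were seen in all 8 samples and held 21.5%. The 10 most abundant in a library took 0.915% to 1.40% of its member reads. Drawn down to 119000 member reads each, libraries held 60353 ± 4802 distinct members in activated and 54805 ± 6515 in control mice (exact permutation test, p = 0.200). Between 40.8% and 58.8% of member reads shared their first 20 nt with a piRNA of 29 to 33 nt in the same library, that is, they had the start of a longer form.

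The 96 tested members held 3.13% to 3.74% of member reads. They were 14 of 24 nt, 11 of 25 nt, 15 of 26 nt, 23 of 27 nt and 33 of 28 nt, with T at base 1 in 77 and A at base 10 in 28. They came from 71 starts (the first 20 nt), of which 17 gave more than 1 length, so the 96 are not independent of each other. At the count minimum, 4 members had a fourth-highest count of exactly 50 and were in, while 38 had one of 45 to 49 and were out.

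No tested member passed in either direction. edgeR's quasi-likelihood test called 0 of 96 higher and 0 lower at a Benjamini-Hochberg adjusted p under 0.05 with a log2 fold change beyond 1, where over all 12077 fragments tested it called 0.505% higher and 0% lower. The lowest adjusted p of a member was 0.524. DESeq2 with apeglm also called 0 and 0, against 1.61% higher and 0.373% lower over all fragments. With no correction, edgeR's p was under 0.05 for 5 higher and 2 lower members, where all fragments gave 3.12% and 4.12%. With the fold limit added, 2 members were higher and 2 lower, where all fragments gave 2.92% and 3.34%. These last counts were 5 higher and 1 lower with scaling by library size alone. Without activated replicate 1 they were 1 higher and 4 lower of 77 members. Uncorrected shares over all fragments were not taken under these alternatives, so these counts cannot be set against a background. The log2 fold change was above 0 in 79 of the 96 (82.3%, with 51.0% over all fragments), with a median of 0.25 against 0.01 over all. By length that median was 0.05 at 24 nt, 0.11 at 25 nt, 0.21 at 26 nt, 0.27 at 27 nt and 0.38 at 28 nt. Scaling by library size alone raised the median of all fragments to 0.12 and that of the members to 0.38.

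Fragment 1, of 24 nt, was the most abundant member. It had 43.1, 52.1, 60.6 and 48.7 RPM in activated replicates 1 to 4 and 38.5, 39.0, 28.6 and 28.1 RPM in control replicates. Every activated value lay above every control value, with a log2 fold change of 0.54 ± 0.28 (SE) and an edgeR adjusted p of 0.793. Between 24 and 33 nt it ended almost wholly at 24 nt, since forms with the same first 20 nt had 0.184 RPM at 25 nt, 2.03 at 28 nt and 1.20 at 29 nt on average, against 42.3 at 24 nt.

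The start of fragment 3 gave 5 tested members, 1 at each length. Averaged over the 8 mice the lengths from 24 to 29 nt had 5.71, 8.73, 16.4, 29.1, 11.2 and 4.06 RPM, a distribution around 27 nt. Fragment 3 itself, of 27 nt, had 30.5, 38.6, 27.4 and 28.2 RPM in activated and 35.2, 33.4, 22.3 and 17.5 RPM in control replicates, which overlap. The 5 log2 fold changes ran from 0.17 to 0.56 each with an edgeR adjusted p of 0.999. The start of fragment 6 gave 4 tested members and has A in place of T at base 1 and A at base 10. Its forms had 8.49 RPM at 24 nt, 3.76 at 26 nt, 12.8 at 27 nt and 6.08 at 31 nt, so it ended at several places. By contrast the start of fragment 9, which gave 3 tested members, had 10.4 RPM at 24 nt, 0.298 at 25 nt, 0.526 at 26 nt and 6.66 at 27 nt, and reached 15.7 at 30 nt. Its 24 nt form was thus set apart from the longer ones by 2 lengths with few reads.

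Fragment 5, the most abundant tested member without T at base 1, varied most among the leading ones. It had 15.2, 5.60, 59.5 and 17.96 RPM in activated replicates and 12.8, 9.25, 0.538 and 4.32 RPM in control replicates. Activated replicate 3 held most of the activated sum and the groups overlapped (log2 fold change 1.83 ± 0.88, edgeR adjusted p = 0.742). Without activated replicate 3 the log2 fold change was 0.99. It differs by 1 substitution, T17C, counted from the 5′ end with the base of fragment 5 first, from a fragment that the files annotate as the 5′ end of mature tRNA-Lys-TTT. That same sequence also carries the annotation DNA.

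Groups did not overlap in 5 members that were higher in activated mice (5.21% of the 96, with 2.52% over all fragments tested) and 3 that were lower (3.12%, with 1.47%). The 5 were fragments 1, 26, 53, 57 and 71, of which 53 and 71 share a start, and the 3 were fragments 33, 65 and 69. Fragment 57 had 5.50, 7.60, 6.57 and 4.14 RPM in activated and 3.30, 3.81, 2.26 and 2.997 RPM in control replicates, with a log2 fold change of 0.84 ± 0.34 (edgeR adjusted p = 0.641). Fragment 69, which is mostly a run of A, had 3.42, 2.29, 2.71 and 1.38 RPM in activated and 4.03, 5.45, 7.21 and 6.13 RPM in control replicates, the lowest unadjusted p of the 96 at 0.0142 (log2 fold change -1.30 ± 0.43, edgeR adjusted p = 0.524). None of these differences passed the correction. Fragment 65 had a log2 fold change of -1.05 ± 0.45 and fragment 33 of -0.54 ± 0.32, with edgeR adjusted p values of 0.669 and 0.890.

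The other named members overlapped between groups. Fragments 49 and 76, 2 lengths of 1 start, had log2 fold changes of 0.97 ± 0.43 and 0.92 ± 0.39, fragment 90 of 1.14 ± 0.49 and fragment 94 of 1.098 ± 0.455, with edgeR adjusted p values from 0.661 to 0.685. Fragment 74, which lies in the 3′ UTR of Arhgap20 (chr9:51851007-51851031, plus strand), a gene for a GTPase-activating protein, had 2.89, 5.15, 1.02 and 3.72 RPM in activated and 2.74, 5.41, 6.67 and 3.55 RPM in control replicates. Its groups were mixed (log2 fold change -0.60 ± 0.53, with -0.23 without activated replicate 3 and -0.76 without control replicate 1). The abundant fragments 7, 9, 10, 11 and 12 had log2 fold changes of 0.40, 0.07, 0.52, -0.59 and 0.44. Without 1 sample, fragment 7 ran from 0.12 to 0.69 and fragment 10 from 0.38 to 0.86. Fragment 11 ran from -1.33 without activated replicate 1 to -0.19 without control replicate 3.

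**Figure D4:**
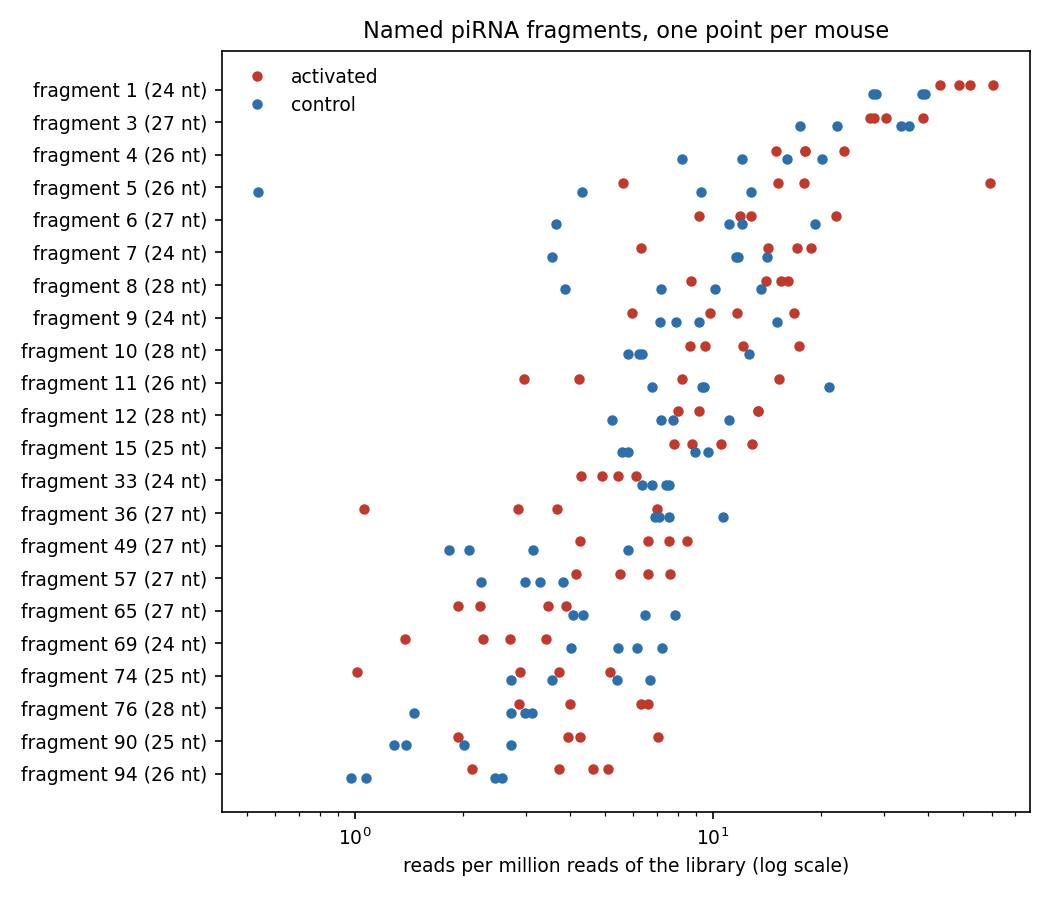
Abundance (RPM, log scale, x axis) of each named tested member (y axis, with its length), with 1 red point per activated and 1 blue point per control mouse. The points of fragments 1 and 57 are separated with activated mice higher, those of fragments 33, 65 and 69 with control mice higher, and fragment 5 spans from 0.538 to 59.5 RPM.

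Most member reads had no exact match to an annotated transcript sequence. Only transcript sequences were searched, so a read from an intron that no transcript retains counts as unmatched. A sense match to at least 1 GENCODE transcript was found for 12.0% to 16.02% of member reads per sample. Matches on the sense strand only (11.9% ± 1.11 of reads over 8 libraries) outweighed those on the antisense strand only (3.45% ± 0.108) in 8 of 8 libraries (exact sign-flip test, p = 0.00781). Reads within the 3′ UTR of 1 gene made up 3.605% ± 0.145 of member reads and those within coding sequence 2.90% ± 0.576. Among piRNAs of 29 to 33 nt coding sequence took 0.747% ± 0.0426, less than among the members in 8 of 8 libraries (exact sign-flip test, p = 0.00781).

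The first base set these places apart. T began 86.1% ± 1.02 of member reads without a transcript match, 85.6% ± 0.992 of those in lincRNA genes (long intergenic non-coding RNAs), 83.0% ± 1.44 of antisense reads and 74.1% ± 3.35 of reads in 3′ UTRs. In coding sequence it was 36.04% ± 3.73, lower than in 3′ UTRs in 8 of 8 libraries (exact sign-flip test, p = 0.00781). Reads in lincRNA genes had 544 ± 87.0 RPM in activated and 387 ± 104 RPM in control mice (ratio 1.41, exact permutation test, p = 0.0857) and those in 3′ UTRs 774 ± 118 and 582 ± 118 RPM (ratio 1.33, p = 0.0857). Reads in coding sequence had 538 ± 61.6 and 517 ± 45.9 RPM, with a ratio of 1.04 (exact permutation test, p = 0.571). Whether these ratios differ from each other was not tested.

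Member reads with a sense match to 1 gene only were summed by gene, and 63 genes had at least 50 in at least 4 samples. Gm49794, a lincRNA gene on the plus strand of chr17:27354111-27367492, held the most, with 3162 distinct members, 88.0% of its reads beginning with T and no member above 0.834% of them. It had 223, 248, 182 and 179 RPM in activated and 144, 198, 136 and 118 RPM in control replicates, where control replicate 2 overlaps (log2 fold change 0.37 ± 0.32, edgeR adjusted p = 0.611). On the same stretch of chromosome 17 lie Gm10505 (chr17:27325035-27344833, plus strand) and, running away from it on the minus strand, the lincRNA gene Gm49793 (chr17:27308316-27318696). Pairs of precursors that diverge from a common start region are known among pachytene piRNA genes.

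Gm10505 had 51.8 ± 4.45 RPM in activated and 36.8 ± 7.28 in control mice, and Gm49793 18.9 ± 1.87 and 12.6 ± 3.49. Both had T at base 1 of 92.2% and 89.3% of reads and fewer longer forms than Gm49794, with 0.415 and 0.269 reads of 29 to 33 nt for each member read, against 0.670. Gm5878, a lincRNA gene on the minus strand of chr6:85111416-85126125, had 1.06 longer reads for each member read, and 90.8 ± 13.7 and 65.4 ± 24.2 RPM. 1700001L05Rik (chr15:83353847-83367282, minus strand) had 79.2 ± 18.7 and 54.2 ± 13.2 RPM and Gm21388 (chr3:34826669-34879283, plus strand) 75.8 ± 11.6 and 54.2 ± 15.4 RPM. The log2 fold changes of these 5 genes lay between 0.34 and 0.46, and none passed (edgeR adjusted p from 0.600 to 0.612).

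Of the 43 protein-coding genes with regions assigned, 25 drew most of their member reads from the 3′ UTR and 11 from coding sequence. Among those with many member reads, 1700006A11Rik had only 20.7% in the 3′ UTR. Cbl, a ubiquitin ligase gene, had 99.7% of its member reads there, Tbl2, which encodes a WD-repeat protein, 98.8%, Asb1, an ankyrin repeat and SOCS box gene, 91.2%, and Ago2, which encodes an Argonaute protein of the miRNA pathway, 96.3%. T began 87.6% to 95.2% of reads in these 4 genes. Tbl2 had 44.3 ± 9.11 RPM in activated and 31.4 ± 10.8 in control mice, Cbl 43.9 ± 10.4 and 34.8 ± 7.58, Asb1 34.2 ± 4.91 and 26.2 ± 8.58, and Ago2 26.7 ± 4.91 and 17.9 ± 5.31. Each overlapped between groups. Nemp1, a nuclear envelope protein gene, drew 67.7% from its 3′ UTR and 31.5% from coding sequence, with T at 93.4% of first bases.

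Of the 63 genes, 36 had T at base 1 in at least 75% of member reads and 20 in under 35%, and these limits were set after the values were seen. In 20 of the 22 high genes with a coding region of their own, most member reads lay in the 3′ UTR. The 20 low genes included those of abundant spermatid messages, such as Smcp (a sperm mitochondrial capsule protein, 14.7%), Odf1 (the outer dense fibre of the tail, 29.5%), Prm2 (a protamine, 13.3%), Tnp2 (a transition protein, 13.5%) and Oaz3 (the testis antizyme, 18.5%). They also included genes used in most cells, such as Hnrnpa0 (an RNA-binding protein, 21.8%) and Eif4g1 (a translation initiation factor, 15.6%). In 10 of 17 of them with a coding region, most reads lay in coding sequence. Low genes had a median of 0.173 reads of 29 to 33 nt for each member read, and high genes 0.860, although Smcp had 1.97.

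Member reads of the high genes summed to 1109, 1271, 906 and 911 RPM in activated and 753, 1027, 581 and 615 RPM in control replicates. Those of the low genes summed to 167, 160, 141 and 159 RPM in activated and 174, 181, 152 and 150 RPM in control replicates. The former were higher in activated mice except for control replicate 2, and the latter were mixed. The log2 fold change was above 0 in 35 of the 36 high genes, with a median of 0.38, the exception being Eif4ebp2 at -0.01, and in 5 of the 20 low genes, with a median of -0.18. Scaled to the member reads of each library, these medians were 0.09 and -0.51 and 27 and 1 genes were above 0. Over all 63 genes 73.0% were above 0. As the groups were formed after seeing values, no test was made of the difference between them.

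No gene passed. edgeR called 0 of 63 higher and 0 lower (0% and 0%), and with no correction its p was under 0.05 for 3 higher genes and 1 lower gene. These uncorrected counts were 19 and 1 with all reads as library size, 4 and 10 scaled to member reads, and 18 and 1 without control replicate 2. The lower one was Hspa8, which encodes a constitutive heat shock protein. Its member reads had 9.06, 5.83, 5.49 and 3.19 RPM in activated and 10.2, 10.5, 17.1 and 11.0 RPM in control replicates, with all activated mice below all control mice (log2 fold change -1.16 ± 0.36, adjusted p = 0.0795). It passed with all reads as library size (-1.03, adjusted p = 0.0161), scaled to member reads (-1.53, 0.0129), and without activated replicate 1 (0.00690), control replicate 1 (0.0390) or control replicate 2 (0.0420). It did not pass without any of the other 5 mice (0.167 to 0.444), with 0.278 without control replicate 4.

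The Hspa8 reads were few in kind. They came from 13 distinct members, and fragment 36 made up 65.5% of them. It matches transcripts with retained introns at chr9:40803643-40803669 and chr9:40804055-40804081 on the plus strand, where the annotation also places Snord14c and Snord14d, small nucleolar RNAs that Hspa8 hosts in its introns. Only 22.5% of the Hspa8 reads began with T and 0.0174 reads of 29 to 33 nt were found for each member read. As a single fragment it had 6.98, 2.86, 3.66 and 1.06 RPM in activated and 7.08, 7.52, 10.6 and 6.90 RPM in control replicates, which meet at activated replicate 1 (log2 fold change -1.16 ± 0.55, adjusted p = 0.742 over all fragments, and -1.85 without that replicate).

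The 3 genes with higher values before correction were 1700097M23Rik, Kctd7 and Unc119b. 1700097M23Rik, an annotated transcript of the TEC class (still to be tested by experiment) on the minus strand of chr6:81893818-81895339, had 9.73, 9.55, 5.56 and 6.06 RPM in activated and 5.47, 4.02, 0.968 and 3.28 RPM in control replicates, with T at 91.2% of first bases. All its activated values lay above all control values (log2 fold change 1.06 ± 0.38, edgeR adjusted p = 0.164), and it passed with all reads as library size (1.15, 0.0161). Scaled to member reads it was 0.73 (adjusted p = 0.208), and it was 0.82 (0.866) without activated replicate 1 and 0.77 (0.874) without control replicate 3. Kctd7 had 11.2 ± 2.42 RPM in activated and 5.86 ± 2.79 in control mice, and Unc119b, which encodes a trafficking protein of cilia, 4.07 ± 0.498 and 2.07 ± 0.521. Activated and control mice overlapped in Kctd7 and did not in Unc119b. They drew 97.2% and 95.6% of their member reads from the 3′ UTR, and both had an edgeR adjusted p of 0.416.

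**Figure D5:**
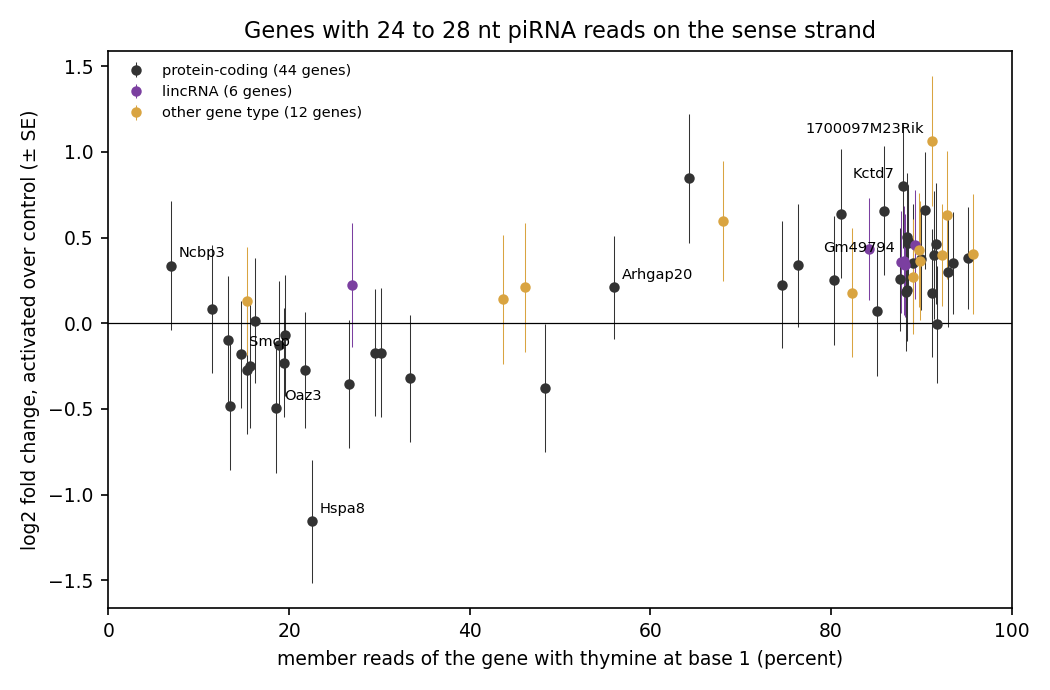
Log2 fold change between groups (y axis, bars are SE from edgeR) of the member reads of each gene against the share of those reads with thymine at base 1 (x axis, percent), with 1 point per gene and 62 of the 63 genes shown. Genes fall on the left (under 35%) or the right (at least 75%) with few between, Eif4ebp2 (-0.01) is the one gene on the right that is not above 0, and Hspa8, on the left, is lowest at -1.16.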

How the data were processed

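Small RNA of sperm from 4 activated and 4 control mice was analysed from 1 table per mouse. The authors made raw read counts per distinct sequence, as deposited, with SPORTS 1.1: reads of 50 bp from 100 ng of RNA were trimmed, kept at 15 to 45 bp and matched by Bowtie with 0 mismatches to mm10, miRBase 21, rRNA, tRNA, piRBase, Ensembl 89 and Rfam 12.3 sequences, with duplicates left in. The versions come from the methods of the study and the submitters' processing notes. Counts carry no molecular identifiers, and the spread between mice was taken as the error. The summary tables were not used here.

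RPM is reads per 1000000 reads of the library. Exact permutation tests over mice, or sign-flip tests within libraries, were two-sided. The test of single fragments took those that reached 50 counts in 4 or more samples, in R 4.3.3, by edgeR 4.0.16 (TMM, quasi-likelihood) or, as an alternative, DESeq2 1.42.0 with apeglm 1.24.0. A call needed a log2 fold change beyond 1 together with a Benjamini-Hochberg adjusted p below 0.05. The procedure was tested on simulated data. Members were matched without mismatch to GENCODE M21 transcripts, and gene sums were tested with edgeR using all reads times the TMM factors of all fragments as library size. The transcript and gene analyses were added after the data were seen. Named fragments are the 12 tested members of highest mean abundance, the leading one at each length and without T at base 1, and the 5 with the smallest p in each direction, of which 1 is not reported here. The members, lists and rules were chosen with earlier results of these data known. Figures were drawn with matplotlib 3.10.9 in Python 3.11.15, numpy 2.4.6 and pandas 2.3.3. Alternatives covered scaling, count minimums, distinct-fragment weights, a replicate block, leaving out each sample and, not planned in advance, the mitochondrial rRNA set as a covariate.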

Additional observations from a re-analysis of the deposited data

Results flagged for a closer look

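Within a group of 4 mice, a sample was looked at again when its gap to the nearest other sample took more of the group's range than Dixon's 95% criterion allows. Of 110 groups examined, 6 held such a sample, and chance gives about 1 in 20. The piRNAs of 29 to 33 nt had 15600 RPM in activated replicate 4, the lowest of its group. Fragment 10 had 12.6 RPM in control replicate 2 and fragment 36 had 10.6 RPM in control replicate 3, each the highest control. Among the miRNA lists, the epithelial sum was 3380 RPM in activated replicate 1 and 18910 RPM in control replicate 4, and the smooth muscle sum was 34887 RPM in control replicate 4.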

How the results depend on the processing

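Precision is limited by 4 mice per group. The direction of summed abundance, of each length from 24 to 28 nt and of the share with T was kept under every alternative run. Leaving out 1 sample moved the ratio of summed abundance between 1.25 and 1.51 and the difference in T between 1.01 and 2.63 points. Both passed only without control replicate 2, the only control mouse that overlapped the activated ones. Its removal separates the groups, so those passes add no independent support. TMM-scaled library sizes gave a ratio of summed abundance of 1.23 (exact permutation test, p = 0.229), and the members of 50 reads in 4 samples alone gave 1.27. The share with A at position 10 turned to 0.0695 points with each distinct fragment counted once, and ran from -0.450 to 0.0687 points without 1 sample. The difference in the share of 24 to 28 nt among 24 to 33 nt ran from -0.783 (without activated replicate 2) to 1.64 points, with -0.749 without control replicate 3. Both comparisons of T with other classes kept their sign and side, with ranges of -4.51 to -3.94 and 45.1 to 47.5 points without 1 sample, and -4.49 and 43.5 points with each distinct fragment counted once.

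No alternative called a member. The median log2 fold change of the members ran from 0.15 to 0.38 in edgeR and was 0.06 with apeglm, which shrinks fold changes. With the mitochondrial rRNA set as a covariate, a fit not planned in advance, the lowest adjusted p of the 96 members was 0.268 (edgeR). That fit called 100 higher and 7 lower of all 12077 fragments. At a minimum of 10 counts 2316 members were tested, and at 1 count 39684, where the lowest adjusted p was 0.0586 (edgeR). Over all 387985 fragments at 1 count, 1743 were called higher and 1057 lower. Genes called higher were 1 with all reads as library size and 0 otherwise. Genes called lower were 1 with all reads as library size, 1 scaled to member reads, and 0 to 1 without 1 sample; the cause was not tested. The median over genes was 0.26, with 0.40 and -0.02 under those scalings, 0.10 without control replicate 3 and 0.46 without control replicate 2. Without 1 sample, fragments 6 and 9 ran from -0.0442 to 0.516 and from -0.109 to 0.365.

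To check for pairing, each sample's deviation from its group mean in log2 abundance was correlated over all tested fragments. Between same-numbered samples these deviations correlated at -0.63, -0.55, 0.59 and 0.51, so the numbers do not pair the mice. Over every activated and control pair, the correlation was 0.515 to 0.662 within a mitochondrial rRNA set and -0.630 to -0.515 between sets. A replicate block gave a ratio of 1.36 for summed abundance (exact sign-flip test, p = 0.125, the smallest 4 pairs can give), 1.90 points for T and 0 called members.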
